A study of Rattus norvegicus with 9 samples.

Results

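Pleiotrophin and midkine are small heparin-binding growth factors, and the genes described here are those 2 ligands together with the cell surface proteoglycans that can hold such factors and the enzymes that build their sugar chains. The 10 genes were chosen by name: Ptn and Mdk for the ligands, Sdc1, Sdc2 and Sdc4 for syndecans, Gpc1, Gpc2 and Gpc3 for glypicans, and Ext1 and Ext2 for the chain-making enzymes. The choice was made with earlier results of these data known. All probe sets that the platform's probe table gives to these symbols were taken, which made 12 of the 15866 probe sets on the array, since Sdc1 and Sdc2 have 2 each. All 12 were among the 10106 probe sets that passed a filter on low signals.

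The signals come from ureteric buds, the epithelial outgrowths that branch to form the collecting duct system of the kidney, isolated from Sprague-Dawley rat embryos at embryonic day 13 and cultured for 4 days within a gel made of equal parts of Matrigel (low in growth factors) and type 1 collagen. All media held FGF1 at 250 ng/ml and GDNF at 125 ng/ml. HRG buds also received human recombinant heregulin alpha, an ErbB receptor ligand, at 500 ng/ml. PTN buds received about 3 µg/ml of pleiotrophin protein purified from the conditioned medium. BSN buds received that whole medium, taken from a cell line of the metanephric mesenchyme, and its other contents are not listed in the labels. RNA of 3 buds made 1 sample, and each medium had 3 samples, which the series design calls biological replicates, on 9 Affymetrix arrays. The series title counts the PTN cultures as branching and the PTN sample descriptions count them as non-branching, so groups are called by medium alone. No group received FGF1 and GDNF alone, so a fall in one medium cannot be told from a rise in the other.

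Pleiotrophin and midkine are secreted proteins that bind heparan sulfate and chondroitin sulfate chains as well as receptors such as the phosphatase encoded by Ptprz1. Syndecans cross the membrane and glypicans are tied to it by a lipid anchor, and both carry heparan sulfate on a protein core. The chains are polymerised in the Golgi by the partner proteins of Ext1 and Ext2 and are then sulfated. In the developing kidney heparan sulfate is known to be needed for the response of the ureteric bud to GDNF and FGF, and loss of Gpc3 in mice disturbs collecting duct growth.

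The RefSeq promoter table (GRCr8) held 5 of the 10 genes, and the 250 bases before the annotated start are shown for Gpc2 and Gpc3, whose probe sets were lower in HRG than in both other media, and for Sdc4, whose probe set was not. Capitals mark 2 short motifs searched on both strands: the GC box with the letters GGGCGG, read as CCGCCC where it lies on the opposite strand, and the CCAAT box, read as ATTGG where it lies on the opposite strand. Neighbouring GC boxes can share letters. All 3 sequences are given 5′ to 3′ on the gene's own strand, which is the minus strand of the chromosome in each case.
Gpc2, chr12:22397823-22398072: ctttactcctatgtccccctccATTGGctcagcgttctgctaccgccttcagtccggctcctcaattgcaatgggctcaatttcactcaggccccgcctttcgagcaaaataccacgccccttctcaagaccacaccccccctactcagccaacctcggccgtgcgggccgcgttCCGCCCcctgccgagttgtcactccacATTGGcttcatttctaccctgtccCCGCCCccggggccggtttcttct
Gpc3, chrX:137157599-137157848: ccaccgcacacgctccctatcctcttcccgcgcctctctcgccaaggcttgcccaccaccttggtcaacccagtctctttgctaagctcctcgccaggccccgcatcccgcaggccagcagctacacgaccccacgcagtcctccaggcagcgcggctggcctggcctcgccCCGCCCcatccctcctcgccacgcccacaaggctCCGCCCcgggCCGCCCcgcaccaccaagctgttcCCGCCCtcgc
Sdc4, chr3:173592924-173593173: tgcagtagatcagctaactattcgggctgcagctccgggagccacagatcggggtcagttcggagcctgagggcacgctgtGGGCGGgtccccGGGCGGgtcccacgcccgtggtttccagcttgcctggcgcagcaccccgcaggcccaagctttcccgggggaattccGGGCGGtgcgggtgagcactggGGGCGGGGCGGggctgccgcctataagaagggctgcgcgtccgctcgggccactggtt
The Gpc2 window has 2 GC boxes and 2 CCAAT boxes, the Gpc3 window 4 GC boxes and the Sdc4 window 5 GC boxes, of which 2 overlap. Among all 33469 promoter windows of this length 30.5% hold a GC box and 34% a CCAAT box. The AP-1 site, TGAGTCA or on the opposite strand TGACTCA, was searched as well. It is in none of these 3 windows and is in 4.05% of all windows. Of the 5 genes with a window it is in that of Ptn, from 80 to 74 bases before the table's start, together with 1 GC box. That window lies inside the widest annotated extent of the Ptn gene on chromosome 4 and is not printed. The matches are descriptions of letters, and no binding was measured.

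Both ligand genes were much lower in heregulin than in either other medium. Ptn had array signals of 1434, 897 and 764 in HRG, 3814, 4387 and 3939.6 in PTN and 4719, 4094 and 2827 in BSN. Every HRG array lay below every PTN and every BSN array, while the PTN values fell inside the BSN range, which was the widest of the 3 in absolute signal. The group means were 1032 ± 355 in HRG, 4047 ± 301 in PTN and 3880.2 ± 964 in BSN (SD, n = 3 each). Ptn fell 3.77-fold in HRG against BSN (log2 difference -1.91 ± 0.229 SE, adjusted p = 0.000107) and 4.01-fold against PTN (log2 difference -2.00 ± 0.229 SE, adjusted p = 4.47e-05). Fold changes throughout are on the scale of log2(signal + 16), and adjusted p is limma's moderated test with Benjamini-Hochberg adjustment over the 10106 probe sets.

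Mdk, the other ligand gene, had array signals of 4844, 3873 and 4097 in HRG, 19172, 14882 and 16460 in PTN and 19158, 16593 and 21275 in BSN. The 3 HRG arrays were again the lowest of all, and the PTN and BSN arrays overlapped. Its means were 4271 ± 508 in HRG, 16838 ± 2170.1 in PTN and 19009 ± 2345 in BSN (SD, n = 3 each). In HRG it fell 4.43-fold against BSN (log2 difference -2.15 ± 0.146 SE, adjusted p = 8.74e-07) and 3.93-fold against PTN (log2 difference -1.97 ± 0.146 SE, adjusted p = 1.58e-06).

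Adding pleiotrophin protein in place of whole conditioned medium left neither ligand's own transcript past the threshold. The log2 difference of PTN against BSN was 0.09 for Ptn, with a 95% interval of -0.41 to 0.59 (adjusted p = 0.809). For Mdk it was -0.18, with an interval of -0.49 to 0.14 (adjusted p = 0.411). Equality was not shown, since both intervals allow a change of the size of their bounds. The order of signals for both genes was thus HRG lowest, with PTN and BSN not told apart.

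**Figure D1:**
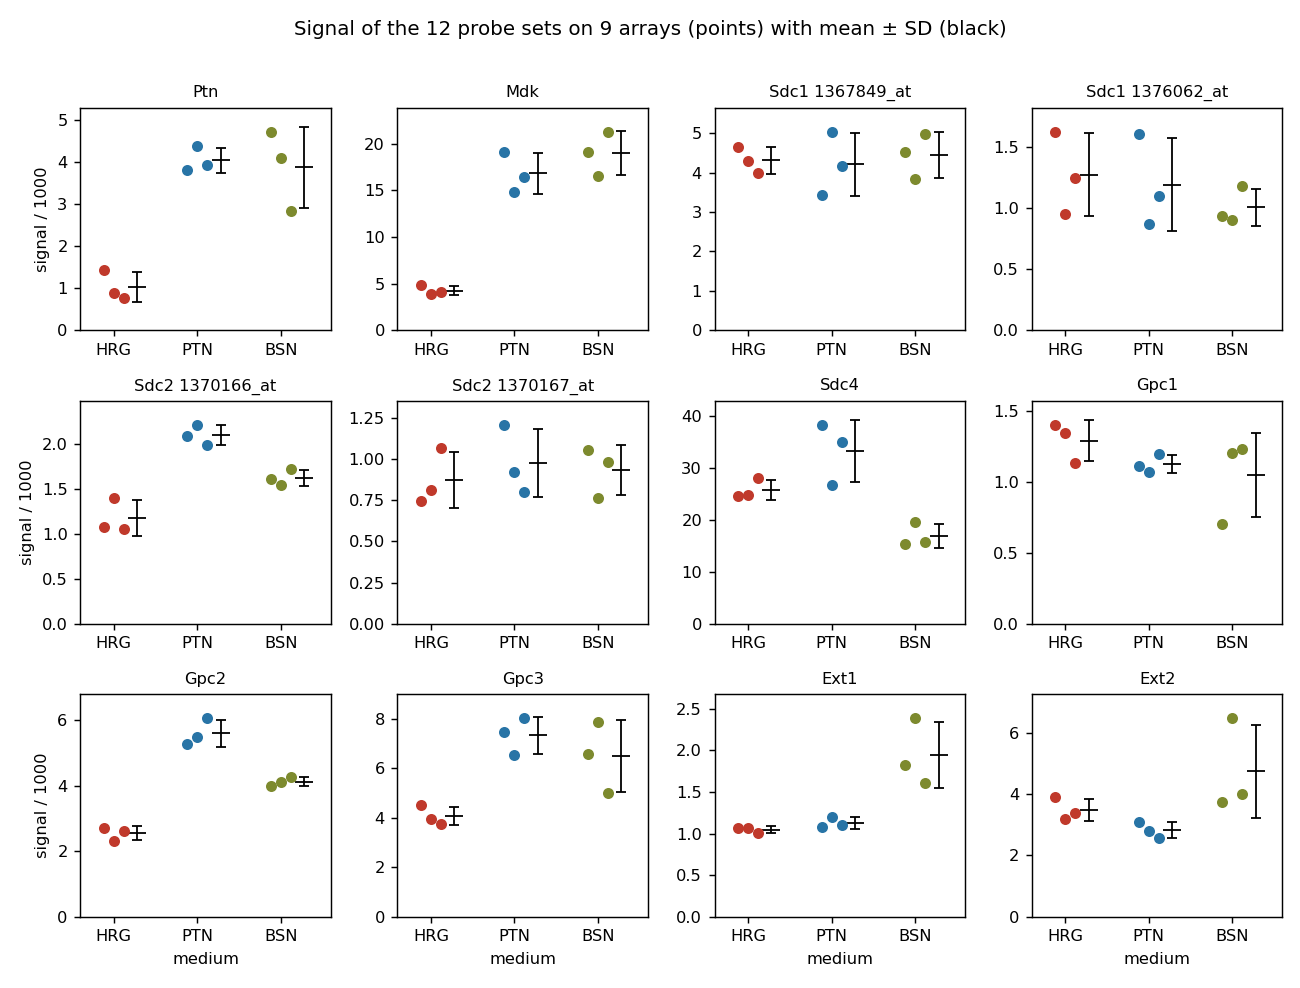
Array signal divided by 1000 (linear axis from 0, own scale in each panel) of the 12 probe sets in HRG, PTN and BSN, with 1 point per array and the mean ± SD of 3 arrays in black. Ptn and Mdk have all HRG points below all others, Gpc2 separates all 3 media, Sdc4 is lowest in BSN, and Ext1 is highest in BSN.

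Of the syndecans, Sdc4 was higher in HRG and in PTN than in BSN. Syndecan 4 is a broadly expressed syndecan found at focal adhesions. Its signals were 24555, 24771 and 28095 in HRG, 38317, 26663 and 35094 in PTN and 15352, 19567 and 15727 in BSN. All HRG and all PTN arrays lay above all BSN arrays, and PTN replicate 2 lay within the HRG range. The means were 25807 ± 1984 in HRG, 33358 ± 6018 in PTN and 16882 ± 2333 in BSN (SD, n = 3 each). Sdc4 was 1.96-fold higher in PTN than in BSN (log2 difference 0.97 ± 0.15 SE, adjusted p = 0.00089) and 1.53-fold higher in HRG than in BSN (adjusted p = 0.0135). The HRG call against BSN was lost without HRG replicate 3 (adjusted p = 0.0649), BSN replicate 1 (0.0609) or BSN replicate 3 (0.0582). HRG against PTN did not pass (log2 difference -0.36, 95% interval -0.68 to -0.03, adjusted p = 0.102), and it did pass without PTN replicate 2 (adjusted p = 0.0243).

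Sdc2, which encodes syndecan 2, was measured by 2 probe sets that disagree. The brighter one (1370166_at) had signals of 1081, 1404 and 1049 in HRG, 2088, 2212 and 1992 in PTN and 1614, 1544 and 1723 in BSN, so that the 3 media did not overlap and PTN was highest. It was 1.78-fold lower in HRG than in PTN (log2 difference -0.83 ± 0.148 SE, adjusted p = 0.0013). Against BSN the HRG difference was -0.47 on the log2 scale and passed narrowly (adjusted p = 0.0485). That call was lost under 12 of 17 alternatives, among them both other scalings and leaving out any of HRG replicates 1 and 3, PTN replicates 2 and 3, or any BSN array (adjusted p up to 0.186). PTN against BSN did not pass (log2 difference 0.36, adjusted p = 0.097), and it did after quantile normalization (0.0281) or median centring (0.0312). The dimmer probe set (1370167_at) ranged from 745 to 1069 in HRG, from 803 to 1209 in PTN and from 764 to 1060 in BSN, with all 3 media overlapping. It passed in no comparison (adjusted p = 0.822, 0.65 and 0.881 in the order of comparisons HRG to BSN, HRG to PTN, PTN to BSN).

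Sdc1, the epithelial syndecan, gave no call on either probe set. The brighter one (1367849_at) had means of 4311 ± 337 in HRG, 4207 ± 803 in PTN and 4444 ± 580.2 in BSN (SD, n = 3 each), and its arrays overlapped between all media. The 95% intervals of its log2 differences were -0.39 to 0.31 between HRG and BSN, -0.30 to 0.40 between HRG and PTN and -0.44 to 0.26 between PTN and BSN. The dimmer one (1376062_at) ranged from 955 to 1628 in HRG, from 874 to 1614 in PTN and from 906 to 1181 in BSN. Its log2 differences lay between 0.11 and 0.31, with adjusted p of 0.445 to 0.786. Across the 9 arrays the 2 Sdc1 probe sets had r = -0.319 with each other and the 2 Sdc2 probe sets r = 0.247, as a description over arrays of 3 media.

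Glypicans 2 and 3 were lower in HRG than in both other media. Gpc2, a glypican described mainly in the developing nervous system, had signals of 2717, 2301 and 2628 in HRG, 5266, 5489.7 and 6058 in PTN and 3995, 4105 and 4262 in BSN. The 3 media did not overlap in any pair, in the order HRG, BSN, PTN from low to high. The means were 2549 ± 219 in HRG, 5605 ± 408 in PTN and 4121 ± 134 in BSN (SD, n = 3 each). Gpc2 fell 1.62-fold in HRG against BSN (log2 difference -0.69 ± 0.127 SE, adjusted p = 0.00234) and 2.19-fold against PTN (log2 difference -1.13 ± 0.127 SE, adjusted p = 3.84e-05). It was 1.36-fold higher in PTN than in BSN (adjusted p = 0.0258), a call lost without PTN replicate 2 (0.0561), PTN replicate 3 (0.0914), BSN replicate 1 (0.0794), BSN replicate 2 (0.0635) or BSN replicate 3 (0.0602).

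Gpc3, the glypican whose loss causes overgrowth in people and mice, had signals of 4496, 3969 and 3758 in HRG, 7462, 6526 and 8017 in PTN and 6591, 7881 and 4998 in BSN. All HRG arrays were below all others, BSN replicate 3 being the nearest, and the PTN arrays lay inside the BSN range except for PTN replicate 3, which was above it. Gpc3 fell 1.57-fold in HRG against BSN (adjusted p = 0.0189) and 1.8-fold against PTN (adjusted p = 0.00268). The call against BSN was lost without HRG replicate 2 (0.0662), HRG replicate 3 (0.0812), BSN replicate 1 (0.063) or BSN replicate 2 (0.0914). PTN against BSN did not pass (log2 difference 0.20, 95% interval -0.17 to 0.56, adjusted p = 0.426).

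Gpc1, a glypican of many tissues, passed in no comparison. Its signals were 1399, 1341 and 1130 in HRG, 1113, 1068 and 1196 in PTN and 703, 1201 and 1231 in BSN, and BSN replicate 1 was the lowest array and the only one of 9 below its array's 40th percentile. The log2 difference was 0.34 for HRG against BSN (95% interval -0.12 to 0.79, adjusted p = 0.326), 0.19 between HRG and PTN and 0.15 between PTN and BSN.

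The chain-making enzymes had a different order, with BSN highest. Ext1 had signals of 1068, 1072 and 1005 in HRG, 1076, 1205 and 1098 in PTN and 1829.5, 2385 and 1609.6 in BSN. All BSN arrays lay above all HRG and PTN arrays, and the HRG arrays lay just below the PTN arrays without overlap. The means were 1049 ± 37.5 in HRG, 1127 ± 68.9 in PTN and 1941 ± 399.6 in BSN (SD, n = 3 each). Ext1 was 1.81-fold lower in HRG than in BSN (log2 difference -0.86 ± 0.164 SE, adjusted p = 0.0031) and 1.69-fold lower in PTN than in BSN (log2 difference -0.76 ± 0.164 SE, adjusted p = 0.00616). HRG against PTN did not pass (log2 difference -0.10, 95% interval -0.46 to 0.25, adjusted p = 0.696).

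Ext2, which encodes the partner subunit, had signals of 3891, 3176 and 3378 in HRG, 3088, 2781 and 2579 in PTN and 3750.1, 6467 and 3986 in BSN. BSN replicate 2 stood above the other BSN arrays, and the BSN and HRG ranges overlapped while the PTN arrays lay below both. Ext2 was 1.63-fold lower in PTN than in BSN (log2 difference -0.71 ± 0.191 SE, adjusted p = 0.0193), a call lost without BSN replicate 2 (0.0623) or PTN replicate 3 (0.0669). HRG against BSN did not pass (log2 difference -0.40, 95% interval -0.82 to 0.01, adjusted p = 0.191), nor did HRG against PTN (log2 difference 0.30, adjusted p = 0.273).

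The actin and GAPDH 3'/5' control ratios, measures of RNA degradation and of 3' bias in amplification, did not order the media alike. The actin ratio was 25.2 ± 5.86 in HRG, 16.6 ± 1.4 in PTN and 33.2 ± 4.91 in BSN (SD, n = 3 each). Its arrays did not overlap between HRG and PTN or between PTN and BSN (exact two-sided permutation p = 0.1 in both, the smallest that 3 against 3 can give), and HRG against BSN gave an exact p of 0.2. The GAPDH ratio was 2.92 ± 0.802 in HRG, 5.14 ± 1.98 in PTN and 4.57 ± 1.11 in BSN (SD, n = 3 each). Its HRG arrays lay below the BSN arrays (exact p = 0.1), while HRG against PTN gave an exact p of 0.3 and PTN against BSN 0.8. The part of these ratios in the members' differences, in HRG as well as in PTN, was not tested.

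**Figure D2:**
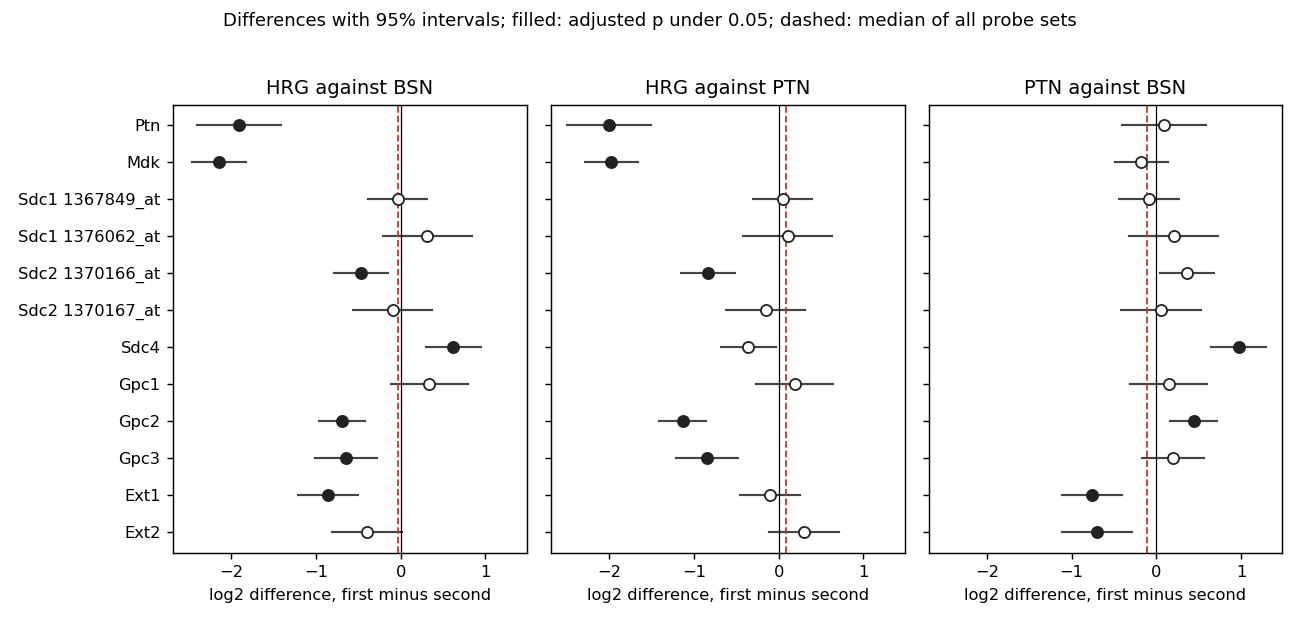
Log2 difference (first medium minus second) of each probe set in the 3 comparisons with its 95% interval. Filled points passed at an adjusted p under 0.05, open points did not, and the dashed line is the median of all 10106 probe sets; Ptn and Mdk lie near -2 in both HRG comparisons, and Sdc4, Ext1 and Ext2 stand out in PTN against BSN.

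Counted over the 12 probe sets, HRG against BSN had 7 calls, 6 lower (Ptn, Mdk, the brighter Sdc2 probe set, Gpc2, Gpc3 and Ext1) and 1 higher (Sdc4). That is 58.3% of the members, beside 15.8% of all 10106 probe sets called in either direction, 6.92% called higher and 8.86% called lower. The number was 4 without HRG replicate 3 or without BSN replicate 1. HRG against PTN had 5 calls, all lower (Ptn, Mdk, the brighter Sdc2 probe set, Gpc2 and Gpc3), which is 41.7% of the members beside 25.8% of all probe sets, 11.7% lower. PTN against BSN had 4 calls, 2 higher (Sdc4 and Gpc2) and 2 lower (Ext1 and Ext2), 33.3% of the members beside 22.5% of all probe sets, 9.15% higher and 13.4% lower. Without PTN replicate 3 or BSN replicate 2 that number was 2, with 1 in each direction. The members were chosen with earlier results of these data known, so the shares are descriptions and test nothing about the set.

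The arrays of the compared media did not overlap for 7 member probe sets in HRG against BSN, 7 in HRG against PTN and 5 in PTN against BSN. Over all probe sets this was so for 37%, 40.2% and 38.5% in the same order of comparisons. The median log2 difference of the members was -0.44 in HRG against BSN, -0.25 in HRG against PTN and 0.12 in PTN against BSN, beside -0.04, 0.08 and -0.11 over all probe sets. The last of these is a shift of the whole array set that median centring removes. After centring, the log2 differences of PTN against BSN were 1.10 for Sdc4, 0.57 for Gpc2, -0.63 for Ext1 and -0.58 for Ext2, and all 4 still passed. Centring also moved the split of all calls, to 1077 higher and 1418 lower in HRG against PTN beside 1423 and 1180 as deposited, and to 1342 higher and 884 lower in PTN against BSN beside 925 and 1351. The comparisons share arrays, so their values are given side by side and were not correlated.

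Markers of other cell types that a bud sample could hold were read from the same arrays. Of 13 mesenchyme and stroma markers 8 have a probe set by name and 3 passed the filter, and their summed signal was 2997 to 3355 in HRG, 2814 to 3610.4 in PTN and 2977 to 3718 in BSN. Neither Pdgfra, at 117 ± 33.1 in HRG, 261 ± 149 in PTN and 137 ± 11.5 in BSN (SD, n = 3 each), nor Pdgfrb, both stromal receptors, passed the filter, and no marker was listed at 0. Of 6 neuron markers all have a probe set and 5 passed the filter, and their summed signal was lower in HRG, at 3376 to 4253, than in PTN, at 6908 to 8924, or BSN, at 8537 to 10055. Dcx, a microtubule protein of migrating neurons, was at 57.7 ± 22.6 in HRG, 1123 ± 210.3 in PTN and 988 ± 123 in BSN. Of the 5 tested, 4 were called lower in HRG than in BSN (Dcx, Map2, Elavl4 and Gap43), 80% beside 8.86% of all probe sets. Called lower in HRG than in PTN were 2 (Dcx and Map2), 40% beside 11.7% of all probe sets. Tubb3 passed in no comparison (adjusted p = 0.24, 0.175 and 0.979 in the order HRG to BSN, HRG to PTN, PTN to BSN). The HRG means of Dcx and Map2 (611) were below the 40th percentile of every HRG array (666 to 731). These 2 genes passed the filter through their PTN and BSN arrays, so their calls give no independent support. Against BSN the Gap43 call was lost under 6 and the Elavl4 call under 2 of 17 alternatives. The summed signal of 7 endothelial markers (5 with a probe set) was 1618 to 2133 in HRG, 1645 to 2158 in PTN and 1717 to 2278 in BSN. The only one of them past the filter, Kdr, a VEGF receptor gene, was at 329 ± 27.6 in HRG, 840.2 ± 229 in PTN and 742 ± 29.5 in BSN (SD, n = 3 each). It was lower in HRG than in BSN (adjusted p = 0.00792) and in PTN (adjusted p = 0.00258), with its HRG mean below the 40th percentile. Kdr too passed the filter through PTN and BSN arrays, so its calls give no independent support. The Dcx, Map2 and Kdr differences run in the same direction as those of Ptn, Mdk, Gpc2 and Gpc3. The way Dcx, Map2 and Kdr passed the filter favours that direction. Gap43 did not pass in HRG against PTN (log2 difference 0.01, adjusted p = 0.977). It was lower in PTN than in BSN (adjusted p = 0.0208), a call lost under 4 of 17 alternatives. Flt1, Emcn, Tie1 and Pecam1, endothelial markers that did not pass the filter, had higher means in HRG than in either other medium. The part of these marker differences in those of the members was not tested. Of 7 blood and macrophage markers 6 have a probe set and 1 passed the filter, with summed signals of 2243 to 2288 in HRG, 1707 to 2541 in PTN and 2552 to 2935 in BSN.

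The ureteric epithelial markers were present at high summed signal, but single ones differed between media. The 9 with a probe set, Epcam and Krt18 the brightest, summed to 146698 to 163657 in HRG, 132549 to 156758 in PTN and 159224 to 169548 in BSN. Ret, the GDNF receptor gene of the bud tips, was at 918 ± 171 in HRG, 18756 ± 849.7 in PTN and 13512 ± 1883 in BSN (SD, n = 3 each). It was 14.5-fold lower in HRG than in BSN (adjusted p = 1.8e-08) and 20.3-fold lower than in PTN (adjusted p = 4.14e-09). It was also 1.4-fold higher in PTN than in BSN (adjusted p = 0.0424), a call lost under 10 of 17 alternatives. A second Ret probe set did not share that rise (log2 difference 0.0007, adjusted p = 0.999). It was lower in HRG than in BSN and in PTN (adjusted p = 5.15e-06 and 3.56e-06). Its HRG mean of 314 was below the 40th percentile of every HRG array (666 to 731), so no fold is given. This second probe set passed the filter through its PTN and BSN arrays, so its HRG calls give no independent support. Lhx1, a transcription factor gene of the bud, was 2.56-fold lower in HRG than in BSN (adjusted p = 0.000192) and 2.47-fold lower than in PTN (adjusted p = 0.000146). Ret and Lhx1 were thus lower in HRG, as Ptn, Mdk, Gpc2 and Gpc3 were. The other tested epithelial markers were not called lower in HRG. Cdh1, Epcam, Gata3 and Emx2 passed in no comparison, and Krt8, Krt18 and Cdh16 did not pass in HRG against BSN.

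Between PTN and BSN other epithelial markers moved. Krt18, a keratin gene, was at 30231 ± 2289 in HRG, 16294 ± 4451 in PTN and 28638 ± 1149 in BSN (SD, n = 3 each), 1.8-fold lower in PTN than in BSN (adjusted p = 0.00311). Cdh16, encoding kidney cadherin, was 1.67-fold lower in PTN than in BSN (adjusted p = 0.00367). Krt8, the partner keratin gene, was 1.33-fold lower (adjusted p = 0.0453), a call lost under 12 of 17 alternatives. These 3 were higher in HRG than in PTN as well (adjusted p = 0.00117 for Krt18, 0.00304 for Cdh16 and 0.00299 for Krt8). The part of the epithelial marker differences in those of the members was not tested. In such bulk samples fewer cells of a type and less RNA per cell cannot be told apart.

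Other genes of the pathway were taken from 7 lists holding 72 genes, of which 50 have a probe set by name and 36 were tested by their brightest probe set that passed the filter. HRG against BSN had 13 of 36 called, 4 higher and 9 lower, HRG against PTN 13, 3 higher and 10 lower, and PTN against BSN 5, all higher. These are 36.1%, 36.1% and 13.9% of the tested genes, beside 15.8%, 25.8% and 22.5% of all probe sets. The lists too were chosen with earlier results of these data known, so the shares are descriptions only. The median log2 differences were -0.18, -0.02 and -0.10, beside -0.04, 0.08 and -0.11 over all probe sets. PTN against BSN had 11 called without PTN replicate 1, 7 of them higher, and 2 without PTN replicate 3 or any of the BSN arrays, and HRG against PTN had 8 without HRG replicate 1.

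Of 7 tested receptors and binding partners of the ligands, 1 rose and 2 fell in each HRG comparison and none passed in PTN against BSN. Each HRG comparison thus had 42.9% called, beside 15.8% (against BSN) and 25.8% (against PTN) of all probe sets. Lrp2, the endocytic receptor megalin, was at 4780 ± 933 in HRG, 2092 ± 409 in PTN and 1513 ± 696 in BSN (SD, n = 3 each), 3.37-fold higher in HRG than in BSN (adjusted p = 0.00147). It was 2.28-fold higher in HRG than in PTN (adjusted p = 0.0113), a call lost without HRG replicate 1 (0.0555). Ptprs, a receptor phosphatase that binds both kinds of chain, fell 1.97-fold in HRG against BSN (adjusted p = 0.00266) and 2.07-fold against PTN (adjusted p = 0.0011), while a second Ptprs probe set passed in neither (0.614 and 0.674). Lrp1, an endocytic receptor that binds midkine, fell 1.54-fold in HRG against BSN (adjusted p = 0.0323), and the call was lost without HRG replicate 2 or 3, without any BSN array (adjusted p up to 0.108) and with no filter. Nrp1, a co-receptor for semaphorins and VEGF, fell 1.5-fold in HRG against PTN (adjusted p = 0.0146), a call that did not hold without HRG replicate 1 (0.0674) or without PTN replicate 2 (0.0616). A second Nrp1 probe set fell as well (0.00107). That probe set also passed as lower in HRG than in BSN (log2 difference -0.56, adjusted p = 0.034), where the brighter one did not (0.384). Ptprz1, the phosphatase receptor of both ligands, was at 1523 ± 123 in HRG, 1699 ± 468 in PTN and 2194 ± 45.2 in BSN (adjusted p = 0.0645 for HRG against BSN).

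Among 5 other heparan sulfate carriers, Gpc6 and Agrn were lower and Col18a1 was higher in HRG than in both other media. That is 60% called in each comparison, beside 15.8% (against BSN) and 25.8% (against PTN) of all probe sets. Gpc6, a further glypican, was at 8990.1 ± 500 in HRG, 21515 ± 671 in PTN and 17012 ± 1288 in BSN (SD, n = 3 each) and fell 1.89-fold against BSN (adjusted p = 0.00014) and 2.39-fold against PTN (adjusted p = 6.8e-06). Its rise in PTN against BSN (adjusted p = 0.0477) was lost under 13 of 17 alternatives, among them leaving out any array other than PTN replicate 1 (0.0504 to 0.152). Agrn, encoding the basement membrane proteoglycan agrin, fell 1.75-fold in HRG against BSN (adjusted p = 0.0059) and 1.59-fold against PTN (adjusted p = 0.0112, 0.0553 without HRG replicate 2). Col18a1, encoding collagen XVIII of basement membranes, rose 2.19-fold in HRG against BSN (adjusted p = 0.000641) and 1.89-fold against PTN (adjusted p = 0.00181), and its second probe set rose in both. Hspg2, encoding perlecan, passed in no comparison, with signals of 1485 ± 178 in HRG, 1217 ± 268 in PTN and 1413 ± 35.8 in BSN.

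Of 5 tested enzymes that start and extend the chain, 1 was called in HRG against BSN and 2 in each other comparison. In the order HRG to BSN, HRG to PTN, PTN to BSN these are 20%, 40% and 40%. Over all probe sets the shares were 15.8%, 25.8% and 22.5%. Extl1, an exostosin-like transferase, was at 650.5 ± 111 in HRG, 2593 ± 602 in PTN and 1412 ± 109 in BSN (SD, n = 3 each). It was lower in HRG than in BSN (adjusted p = 0.00143) and in PTN (adjusted p = 1.2e-05), with no fold given because its HRG mean was below the mean 40th percentile of those arrays. Extl1 was 1.8-fold higher in PTN than in BSN (adjusted p = 0.00748), opposite to Ext1 and Ext2 in the same arrays. Fam20b, the kinase that acts on the linkage xylose, was 1.36-fold lower in HRG than in PTN (adjusted p = 0.0333) and 1.37-fold higher in PTN than in BSN (adjusted p = 0.0331). The first call was lost without any HRG array or PTN replicate 3 (adjusted p up to 0.136), and the second without PTN replicate 3 or any BSN array (up to 0.136) and after quantile normalization (0.0613). Both were also lost with only the groups compared (0.0633 and 0.0641).

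Of 6 chain-modifying enzymes 2 fell in each HRG comparison. That is 33.3%, beside 8.86% (against BSN) and 11.7% (against PTN) of all probe sets called lower. Sulf2, the extracellular sulfatase that trims 6-O-sulfates from heparan sulfate, was at 2702 ± 134 in HRG, 7799 ± 710.5 in PTN and 5428 ± 671 in BSN (SD, n = 3 each). It fell 1.99-fold in HRG against BSN (adjusted p = 0.000306) and 2.87-fold against PTN (adjusted p = 6.58e-06), and it was 1.44-fold higher in PTN than in BSN (adjusted p = 0.0155, 0.0699 without BSN replicate 1). Hs3st1, a 3-O-sulfotransferase, fell 1.85-fold in HRG against BSN (adjusted p = 0.00471) and 1.53-fold against PTN (adjusted p = 0.0233), the second call being lost without HRG replicate 1 or 3 or PTN replicate 2 or 3 (0.057 to 0.107) or with only the groups compared (0.0516). The sulfotransferases Ndst1, Ndst2 and Hs6st1 and the epimerase Glce passed in no comparison.

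Of 6 donor enzymes and carriers 2 rose in HRG against BSN, 33.3% beside 6.92% of all probe sets called higher, and none passed in the other comparisons. Ugdh, which makes the glucuronic acid donor, rose 1.44-fold (adjusted p = 0.0142), a call lost without HRG replicate 2 (0.0539), HRG replicate 3 (0.052) or BSN replicate 1 (0.0669). Papss1, which makes the sulfate donor, rose 1.4-fold (adjusted p = 0.025), a call lost without HRG replicate 1 or 3 or BSN replicate 1 or 3 (0.0539 to 0.128). Of 3 shedding enzymes tested Adam10 was higher in HRG, at 820 ± 144, than in PTN, at 419.5 ± 171 (adjusted p = 0.0316). That is 33.3% of the list, beside 25.8% of all probe sets called in either direction. Adam10 had a low signal. Its call was lost without HRG replicate 1 or 2 or PTN replicate 3 (0.1 to 0.11), after quantile normalization (0.0561) and with no filter (0.0554).

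Of 4 tested chondroitin sulfate genes 2 were called lower in HRG in both comparisons. That is 50% in each, beside 8.86% (against BSN) and 11.7% (against PTN) of all probe sets called lower. Vcan, encoding the matrix proteoglycan versican, was at 142 ± 69.9 in HRG, 966 ± 91.9 in PTN and 1232 ± 149 in BSN (SD, n = 3 each), with adjusted p of 2.25e-05 against BSN and 3.68e-05 against PTN, and its HRG signal was below the 40th percentile. That Vcan probe set passed the filter through its PTN and BSN arrays, so its calls give no independent support. A second Vcan probe set was lower too (0.0135 and 0.0409). Chsy1, a chondroitin synthase, fell 1.5-fold in HRG against BSN (adjusted p = 0.00657) and 2.01-fold against PTN (adjusted p = 8.61e-05). It was 1.34-fold higher in PTN than in BSN (adjusted p = 0.0289), a call lost without PTN replicate 2 or 3 or BSN replicate 2 or 3 (0.0808 to 0.102), after quantile normalization (0.0512) or with only the groups compared (0.0557).

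**Figure D3:**
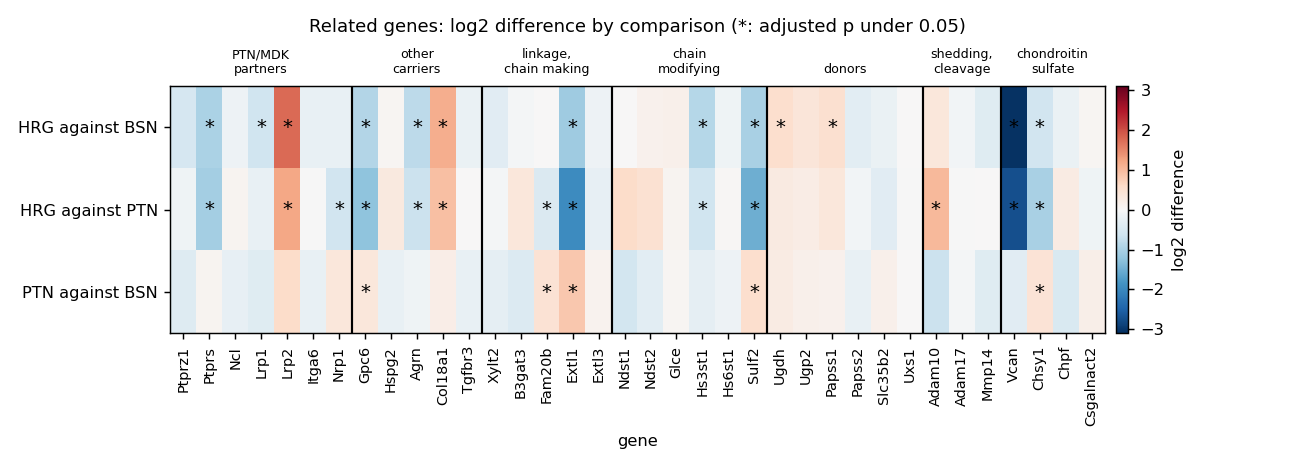
Log2 difference of the 36 tested pathway genes (columns, grouped by list) in the 3 comparisons (rows), with red for higher and blue for lower in the first medium and a star for an adjusted p under 0.05. Vcan, Extl1 and Sulf2 are blue and Lrp2 and Col18a1 red in both HRG rows, and the PTN against BSN row is pale with 5 stars.

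Across the 9 arrays the members' log2 signals fell into unlike patterns, described here by Pearson's r with no test, since the 9 points share 3 media. Ptn and Mdk had r = 0.94 with each other. Ptn had r = 0.921 with Gpc3 and 0.886 with Gpc2, and Mdk 0.831 with Gpc3 and 0.876 with Gpc2. Ext1 and Ext2 had r = 0.797, and Sdc4 had r = -0.743 with Ext1. Ptn had r = -0.129 with Sdc4.

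Among 8375 candidate probe sets with 1 named gene, those most like Ptn over the 9 arrays were Stra6, a retinol transporter gene (r = 0.982), Kif2c, a mitotic kinesin (0.980), Gja1, encoding connexin 43 (0.979), and Ncapd2, a condensin subunit (0.974). Stra6 was at 1544 ± 312 in HRG, 3783 ± 447 in PTN and 3696 ± 278 in BSN (SD, n = 3 each). Most like Mdk were Tubg1, a centrosomal gamma tubulin (r = 0.988), Wnt5b, a Wnt ligand (0.988), Trmt6, a tRNA methyltransferase subunit (0.985), and a second probe set of Ret, the GDNF receptor gene (0.985). That Ret probe set was at 314 ± 84 in HRG, 2269 ± 676 in PTN and 2217 ± 263 in BSN. Wnt5b was at 34.3 ± 3.49 in HRG, 769 ± 100 in PTN and 772 ± 223 in BSN (SD, n = 3 each). Both HRG means were below the 40th percentile of every HRG array (666 to 731). Both probe sets passed the filter through PTN and BSN arrays. Most like Sdc4 were C19h1orf131 (r = 0.970), Ndufa8, a respiratory chain subunit (0.965), Eef1a1, a translation factor (0.959), and Prom1, a membrane glycoprotein (0.956). Prom1 was at 29669.8 ± 3062 in HRG, 33494 ± 2677 in PTN and 16831 ± 1765 in BSN. These r values rest mainly on differences between media, and nothing is drawn from them about function or control.

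**Figure D4:**
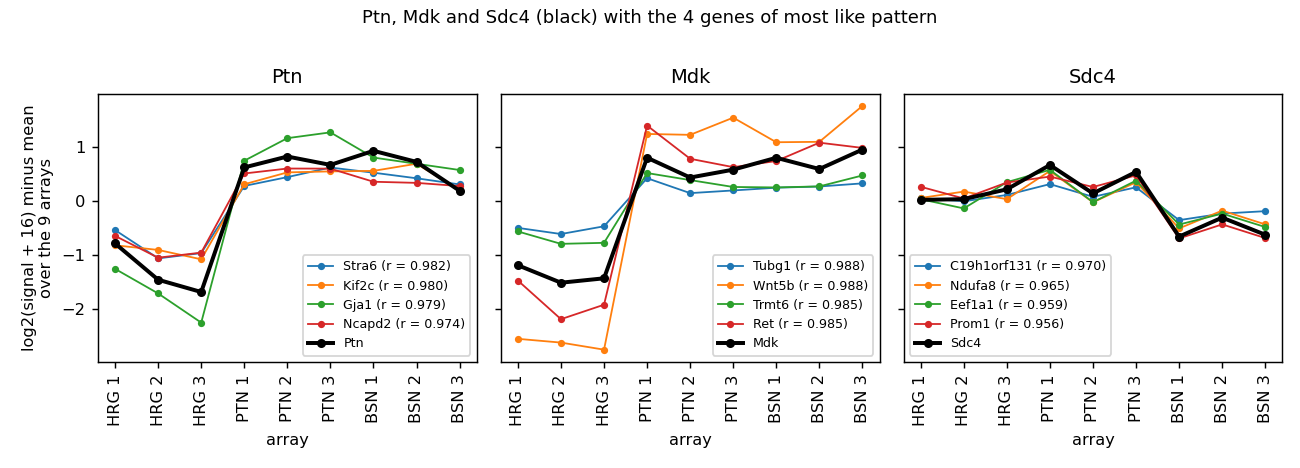
Log2(signal + 16) minus the mean over 9 arrays for Ptn, Mdk and Sdc4 (black) and the 4 genes of most like pattern (colours, with r), by array. The Ptn and Mdk panels step up between HRG and the other media, and the Sdc4 panel steps down between PTN and BSN.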

How the data were processed

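RNA from cultured rat ureteric buds was measured on 9 Affymetrix arrays after 2 rounds of in vitro transcription, per the labels' protocols. The deposited values are signal intensity per probe set on a linear scale from GCOS, per the submitters' processing notes, with version and settings not given in the sources used here. Trimmed means (2% off each end) were 2500.48 to 2500.58, so no scaling was added. The 57 control probe sets were left out, and a probe set was kept if 3 or more of the 9 arrays had it above their 40th percentile. The number of arrays limits the precision. Log2(signal + 16) was fitted with limma 3.58.1 in R 4.3.3 (lmFit, eBayes with an intensity trend) over all 9 arrays, and p-values were adjusted by Benjamini-Hochberg over 10106 probe sets, with 0.05 as threshold. A fold is omitted where a group mean is below the mean 40th percentile of its arrays.

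Symbols came from the platform's probe table. Each related gene entered by its brightest kept probe set. All members were named, and of each related list up to 2 higher and 2 lower genes per comparison. Members and lists were chosen with earlier results of these data known. The median, quality and marker values were compared over arrays, and quality ratios with exact permutation tests. Deviations from the group mean, compared between arrays of the same number, had r = 0.118 to 0.332 between HRG and PTN. Other pairs of groups had r of -0.097 to 0.13. Arrays of unlike number were not compared, so a pairing of the groups was not established. Simulated data of 10106 probe sets had changes planted in HRG in a part of them. The fit of HRG against BSN recovered 82.1% of the planted log2 changes of 1 and 16.4% of those of 0.5, with 9 false calls. Protein sequences were not used here. Figures used matplotlib 3.10.9.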

Additional observations from a re-analysis of the deposited data

How the results depend on the processing

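Of 36 tests of a member probe set 16 passed, and 11 of these passed under all 17 alternatives: quantile normalization, median centring, pseudocounts of 1 and 64, no filter, no intensity trend, only the groups compared, the replicate block and each of 9 arrays left out. The other 5 calls, Sdc2, Sdc4 and Gpc3 in HRG against BSN and Gpc2 and Ext2 in PTN against BSN, were lost under some, and 2 tests gained a call under some. No called direction reversed. With single arrays left out, member calls ranged from 4 to 7 in HRG against BSN and from 2 to 4 in PTN against BSN. The calls over all probe sets ranged from 1053 (without HRG replicate 3) to 2225 in HRG against BSN and from 1358 (without BSN replicate 3) to 3222 in PTN against BSN. Both upper ends came without PTN replicate 1, the array with the lowest mean r with its own group (0.946). Calls among related genes ranged from 8 to 17 in HRG against PTN and from 2 to 11 in PTN against BSN. Related genes called in PTN against BSN were 2 after quantile normalization and 2 with only the groups compared, and the cause was not tested. With the replicate number as a block, the members had 6 calls in HRG against BSN, 5 in HRG against PTN and 4 in PTN against BSN. The block changed no member's call between HRG and PTN.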
